A study of Homo sapiens with 12 samples.

Results

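The genes described are members of the PI3K, AKT and FOXO signalling axis: the PI3K subunit genes PIK3CA, PIK3CD and PIK3R1, the lipid phosphatase gene INPP5D, the kinase genes AKT1 and AKT2, and the transcription factor genes FOXO1 and FOXO3. They were chosen by name, and every probe set that the platform annotation pairs with only that symbol was taken. This gave 23 of the 54613 probe sets tested: 1 for AKT1, 7 for AKT2, 2 for PIK3CD, 3 for PIK3R1, 3 for INPP5D, 3 for FOXO1 and 4 for FOXO3. PIK3CA has no probe set under its name in the annotation and was not analysed here, so 7 of the 8 genes have values. Another 3 probe sets are annotated to both FOXO3B and FOXO3 and are given apart from the 23.

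The RNA came from L428 and L1236, established human cell lines of classical Hodgkin lymphoma. The 4 groups of 3 arrays were untreated L428, L428 after 5-Aza-dC, untreated L1236 and L1236 after 5-Aza-dC. 5-Aza-dC, also called decitabine, is built into DNA in place of deoxycytidine and traps DNA methyltransferases there. Treated cells had 1 µM of it for 24 h and then 72 h of culture without it, and the untreated cells are described only as without treatment. Each line is a single tumour line, and the labels name no vehicle control. Whether the replicates were separate cultures is not stated beyond the word triplicate, so the p-values measure the spread between these samples, which may be technical. By its title the series is about pro-survival signalling under decitabine, so the comparisons ask how these genes responded in each line and how the lines differed.

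PI3K enzymes phosphorylate a membrane lipid, and the product recruits AKT kinases to the membrane, where they are activated. AKT phosphorylates FOXO transcription factors, which then leave the nucleus, so that FOXO target genes of cell-cycle arrest, cell death and stress resistance are less transcribed. The axis is regulated largely by phosphorylation, which transcript arrays do not read. In B cells the PI3K catalytic subunit encoded by PIK3CD signals downstream of the B-cell receptor, and FOXO1 is part of the B-cell programme.

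The sequences upstream of the genes are shown because 5-Aza-dC acts through the methylation of cytosine in CpG, which these arrays did not measure. In RefSeq's promoter table for GRCh38.p14, all 7 genes with probe sets matched, with 17 annotated start sites. For each site the 250 bases before the start were read, and CpG dinucleotides were counted. The median over all 35116 such windows was 11 CpG, with quartiles of 3 and 23, and 10 of the 17 windows lay above that median. The following windows belong to the first listed start site of the 4 genes on which the results below mainly turn. They run 5′ to 3′ in the direction of the gene, with each CpG in capitals.
AKT2: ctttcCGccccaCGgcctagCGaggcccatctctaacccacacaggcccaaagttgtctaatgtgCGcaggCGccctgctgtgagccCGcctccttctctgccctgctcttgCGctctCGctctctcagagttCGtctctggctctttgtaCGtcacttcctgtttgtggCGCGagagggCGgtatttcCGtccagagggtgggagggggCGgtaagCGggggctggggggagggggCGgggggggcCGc
PIK3R1: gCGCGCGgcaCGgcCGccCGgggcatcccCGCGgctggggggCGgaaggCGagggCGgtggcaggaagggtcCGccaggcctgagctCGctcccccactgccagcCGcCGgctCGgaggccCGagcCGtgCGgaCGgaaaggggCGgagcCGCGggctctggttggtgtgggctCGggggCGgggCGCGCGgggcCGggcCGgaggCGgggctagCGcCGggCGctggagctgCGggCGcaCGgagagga
INPP5D: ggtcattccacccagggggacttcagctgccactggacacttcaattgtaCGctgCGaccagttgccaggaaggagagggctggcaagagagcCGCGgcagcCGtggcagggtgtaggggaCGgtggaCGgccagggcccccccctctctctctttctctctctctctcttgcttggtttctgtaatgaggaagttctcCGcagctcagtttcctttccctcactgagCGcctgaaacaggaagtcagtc
FOXO3: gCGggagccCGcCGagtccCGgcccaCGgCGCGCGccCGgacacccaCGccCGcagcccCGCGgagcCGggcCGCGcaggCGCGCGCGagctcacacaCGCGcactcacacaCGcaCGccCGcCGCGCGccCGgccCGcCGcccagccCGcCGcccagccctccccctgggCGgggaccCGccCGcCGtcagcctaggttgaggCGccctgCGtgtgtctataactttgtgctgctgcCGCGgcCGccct

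The AKT2 window lies at chr19:40285346-40285595 on the minus strand, and it holds 18 CpG. The PIK3R1 window lies at chr5:68215506-68215755 on the plus strand and holds 37. The INPP5D window at chr2:233060092-233060341 on the plus strand holds 9, the fewest of these 4. The FOXO3 window at chr6:108559575-108559824 on the plus strand holds 42, more than 98.6% of the windows in the table. Alternative start sites differed widely within a gene, from 2 to 42 CpG in FOXO3 and from 2 to 37 in PIK3R1. The first AKT1 window holds 39 CpG, the FOXO1 window 27 and the 3 PIK3CD windows 14, 33 and 3. The forkhead motif TGTTTAC, searched on both strands, occurs in none of the 17 windows and in 2.98% of all windows in the table. No match says only that these letters are not in these windows.

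Values are log2 signals from robust multichip averaging, 1 per probe set and array, where a step of 1 is a doubling of signal. Differences were taken only within a probe set, and the number of arrays limits the precision. Arrays of a group correlated at 0.982 to 0.997 over all probe sets. The arrays numbered 1 stood apart: treated replicate 1 deviated from its group mean with an SD of 0.39 in L428 and 0.35 in L1236, against 0.16 to 0.31 for the remaining 10. The array nearest to treated L428 replicate 1 by correlation was untreated L428 replicate 3. The source name of untreated L1236 replicate 1 describes treated L428 cells, against its description. The description was used, and the array correlated best with untreated L1236 replicate 3. Results are therefore given on all 12 arrays and on the 8 arrays numbered 2 and 3, a smaller set with 2 arrays per group. In each group the array numbered 1 deviated most, so leaving it out narrows the estimated spread. A smaller adjusted p on the 8 arrays is thus in part built in.

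The labelled cell type was checked against marker genes. Hodgkin Reed-Sternberg cell genes averaged 8.73 to 11.1 per array, with 7 or 8 of 8 above the table's median. B-cell genes averaged 4.13 to 5.26, with 5 or 6 of 7 above that median. Markers of T and NK cells averaged 2.75 to 3.91, those of myeloid cells 2.73 to 3.69, and those of stromal, endothelial and epithelial cells 3.75 to 5.62. In treated L1236 the last of these lists averaged 5.37 to 5.62 against 4.21 to 4.37 untreated, and the T and NK cell list 3.76 to 3.91 against 2.75 to 2.90. The Hodgkin Reed-Sternberg list was higher there too, at 10.00 to 10.94 against 8.73 to 8.98, as was the B-cell list, at 5.18 to 5.26 against 4.70 to 4.99. The lists are read by different probe sets, so their averages are not set against each other. Neither the T and NK cell list, the myeloid list nor the stromal, endothelial and epithelial list had more than 4 members above the median in any group. The part of these markers in the results was not tested.

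Of the 23 probe sets, 15 had a mean above 3.14, the median of all probe set means. The other 8 lay between 1.90 and 3.46 on every array: 5 of AKT2 and 1 each of INPP5D, FOXO1 and FOXO3. None of the 8 was called in any comparison, on all arrays or on the 8. A call means an adjusted p under 0.05 in limma, with Benjamini-Hochberg adjustment over all 54613 probe sets.

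Treatment of L428 gave no called member probe set on all arrays, and 5 had an unadjusted p under 0.05 in limma. Over all probe sets tested, 1.82% were called higher and 1.20% lower. With 2 arrays per group, 4 member probe sets were called higher (FOXO1 and FOXO3) and 2 lower (AKT1 and PIK3CD), against 8.46% higher and 9.77% lower over the table. Treatment of L1236 gave 1 called member probe set, of AKT2 and lower, against 4.58% higher and 4.44% lower over the table. In the smaller set of arrays, 3 were called higher, all of FOXO3, and 3 lower, of AKT2 and PIK3R1, against 10.7% higher and 12.5% lower.

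The difference between the responses, L1236 minus L428, was called for no member on all arrays, and 2 had an unadjusted p under 0.05 in limma. The table held 1.42% called higher and 1.15% lower. Counted without the arrays numbered 1, AKT1 was called higher and 3 probe sets of PIK3R1 and FOXO1 lower, against 6.95% and 7.36% over the table. Between the untreated lines, 1 member probe set was higher in L1236, of AKT2, and 3 were lower, of AKT1 and INPP5D, against 11.2% higher and 9.89% lower. On the 8 arrays the count was 2 higher, of FOXO1 and FOXO3, and the same 3 lower, against 13.9% and 13.0%.

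Probe sets above the median are called more often than dim ones, so the 15 bright members were also set beside all 27306 bright probe sets. In the smaller set of arrays, 40% of the 15 were called in L428 against 34.6% of the bright table, and 40% against 42.9% in L1236. For the response difference the shares were 26.7% and 26.1%, and for the untreated lines 33.3% and 51.4%. On all arrays the members' shares lay below those of the bright table: 0% against 5.59% in L428, 6.67% against 16.5% in L1236, 0% against 4.4% for the response difference and 26.7% against 40.3% for the untreated lines. The median difference of the 15 on all arrays was -0.07 in L428 and 0.08 in L1236, against -0.06 and -0.07 over the bright table.

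Other genes of the pathway are given below by list, with 1 probe set per gene, the brightest. Read this way, 3.85% of all 19775 genes were called in L428, 12.4% in L1236 and 27.2% between the untreated lines, and 25.9%, 32.2% and 36% on the 8 arrays. Most listed genes are bright, and among the 12186 genes above the median the shares were 6.07%, 18.6% and 43.4%, and 40.8%, 49.2% and 57.4% on the 8 arrays. A list's share counts its dim genes too. It is set beside both backgrounds, that of all genes first and that of bright genes second.

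**Figure D1:**
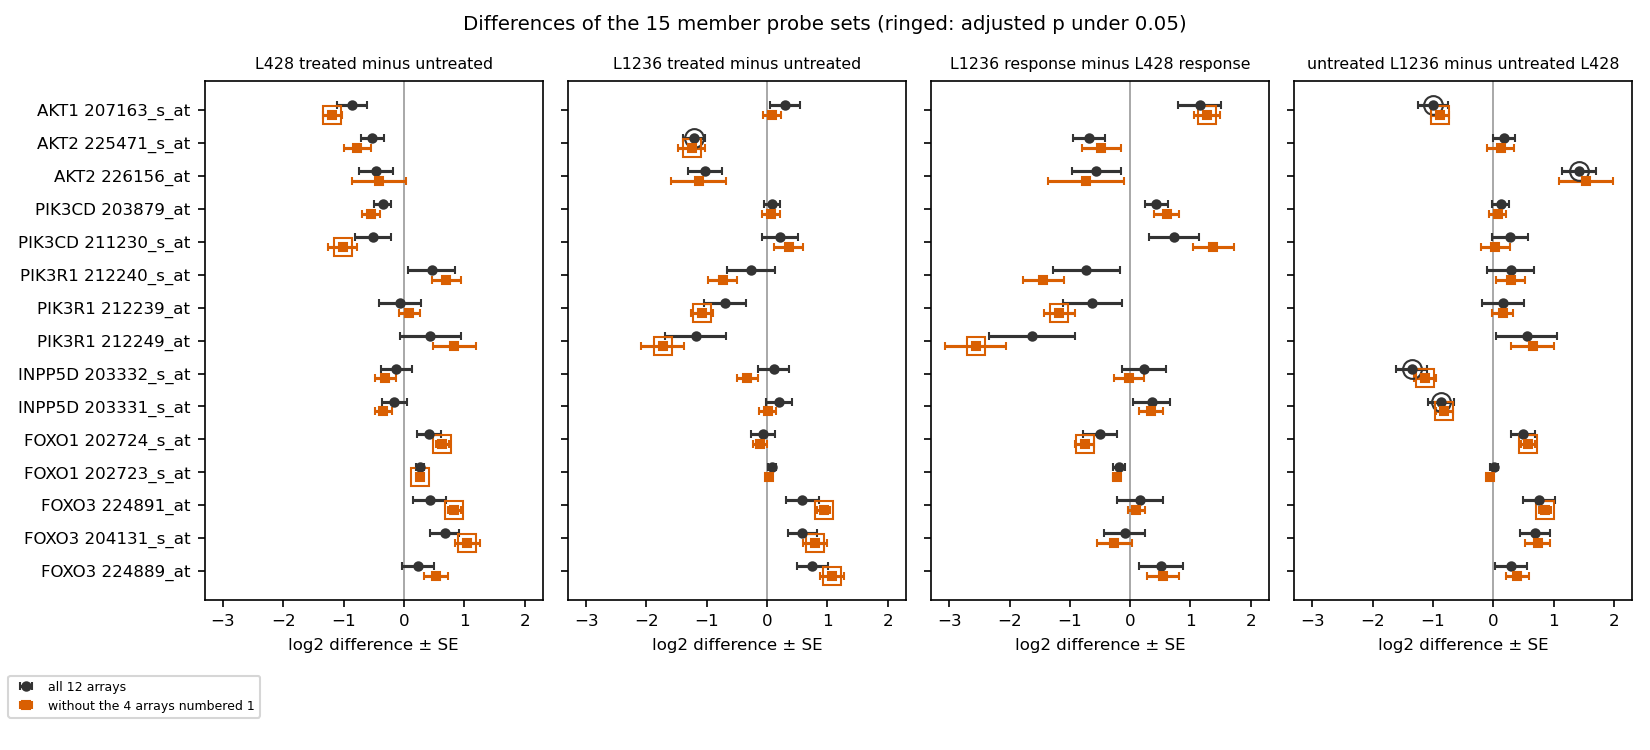
Log2 differences ± SE (limma, x axis) of the 15 bright member probe sets (y axis) in the 4 comparisons, on all 12 arrays (circles) and without the 4 arrays numbered 1 (squares), ringed where the adjusted p was under 0.05. On all arrays the rings mark AKT2 in L1236 and AKT1, AKT2 and INPP5D between the untreated lines, and the FOXO1, FOXO3 and PIK3R1 rings belong to the smaller set of arrays.

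PIK3CD encodes the catalytic PI3K subunit found mainly in leukocytes. Its probe set 203879_at read 11.84, 11.82 and 12.18 in untreated L428 and 11.87, 11.35 and 11.56 in treated L428. In L1236 it read 12.06, 12.17 and 11.97 untreated and 12.19, 12.11 and 12.15 treated. The groups overlapped in both lines, with treated L428 replicate 1 among the untreated values. The L428 difference was -0.35 ± 0.14 (SE, limma adjusted p = 0.233), and -0.55 on the 8 arrays (adjusted p = 0.0695). Leaving out treated L428 replicate 1 alone gave -0.49 (adjusted p = 0.0328). The L1236 difference was 0.08 ± 0.14.

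The dimmer PIK3CD probe set, 211230_s_at, read 6.80, 7.44 and 7.50 in untreated and 7.30, 6.46 and 6.45 in treated L428. It read 7.57, 7.57 and 7.44 in untreated and 7.50, 7.49 and 8.24 in treated L1236. The L428 difference was -0.51 ± 0.30 (limma adjusted p = 0.479) and was called only on the 8 arrays, at -1.02 (adjusted p = 0.0473). Both probe sets of PIK3CD therefore had lower means in treated L428 and neither was called on all arrays. Neither differed by a call between the untreated lines, where the differences were 0.12 ± 0.14 and 0.28 ± 0.30.

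PIK3R1 encodes the regulatory subunit that stabilises the catalytic subunit and holds it inactive until a receptor is engaged. Its brightest probe set, 212240_s_at, read 9.29, 9.23 and 9.15 in L1236 without the drug and 9.95, 8.61 and 8.31 after it. Probe set 212239_at read 8.90, 8.49 and 8.82 untreated and 8.97, 7.51 and 7.63 treated. Probe set 212249_at read 6.75, 6.36 and 6.71 untreated and 6.65, 4.96 and 4.66 treated. In all 3 probe sets, treated L1236 replicates 2 and 3 lay below every untreated array and treated replicate 1 did not.

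With all arrays the L1236 differences of PIK3R1 were -0.27 ± 0.39, -0.70 ± 0.35 and -1.19 ± 0.51, in the same order, with limma adjusted p of 0.645, 0.239 and 0.195. Counted without the arrays numbered 1, they were -0.74 ± 0.24 (adjusted p = 0.0987), -1.08 ± 0.18 (0.0122) and -1.73 ± 0.36 (0.0245). The library that decides these calls is treated L1236 replicate 1: without it alone, 212239_at gave an adjusted p of 0.00344 and 212249_at of 0.0112.

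In L428 treated and untreated values of PIK3R1 overlapped. Probe set 212240_s_at read 9.01, 8.57 and 9.24 untreated and 8.98, 9.53 and 9.68 treated. Probe set 212239_at read 8.74, 8.62 and 8.37 untreated and 8.35, 8.77 and 8.41 treated, and 212249_at read 6.40, 5.38 and 6.39 untreated and 6.05, 6.77 and 6.66 treated. The L428 differences were 0.46 ± 0.39, -0.07 ± 0.35 and 0.44 ± 0.51. The response difference, L1236 minus L428, was -1.62 ± 0.72 for 212249_at (limma adjusted p = 0.383) and -2.56 ± 0.50 on the 8 arrays (0.0331). For 212239_at it was -0.63 ± 0.49 (0.758) and -1.17 ± 0.25 on the 8 arrays (0.0439). For 212240_s_at it was -0.73 ± 0.56 (0.753) and -1.44 ± 0.34 (0.0557). Without treated L1236 replicate 1 alone, the adjusted p was 0.0290 for 212249_at and 0.0313 for 212239_at. For untreated cells of the 2 lines, the differences of the 3 probe sets were 0.16 to 0.55, and none was called.

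Of the other PI3K subunit genes, each read by its brightest probe set, 9 of 10 listed had values. Of the 9, 8 are bright. In L428 none was called, and on the 8 arrays 5 were higher and 1 lower (66.7% against 25.9% and 40.8%). In L1236, PIK3CG, the catalytic subunit activated by G protein-coupled receptors, rose from 3.51 ± 0.27 to 4.69 ± 0.60 (SD, n = 3), a difference of 1.18 ± 0.26 (limma adjusted p = 0.0238). That call was lost on the 8 arrays (0.0658) and without untreated L1236 replicate 1 (0.0559), untreated replicate 3 (0.0922) or treated replicate 2 (0.0818). With 2 arrays per group, 2 of the 9 were called higher and 1 lower in L1236, a share of 33.3% that is near the 32.2% of all genes and below the 49.2% of bright ones. The same gene set the lines furthest apart: PIK3CG read 11.49 ± 0.03 in untreated L428, and was lower in L1236 by 7.98 on the log2 scale (-7.98 ± 0.26, adjusted p = 7.03e-08).

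PIK3R5 and PIK3R6 encode regulatory partners of the PIK3CG protein and were higher in untreated L1236. PIK3R5 read 2.11 ± 0.25 in untreated L428 and 6.70 ± 0.14 in untreated L1236, a difference of 4.59 ± 0.66 (limma adjusted p = 0.000913). PIK3R6 read 2.25 ± 0.17 and 3.72 ± 0.40, a difference of 1.47 ± 0.41 (0.0300) that was not called on the 8 arrays (0.259). Its call was also lost without L428 untreated replicate 1, 2 or 3 (0.0822, 0.0632 and 0.0788) or L1236 untreated replicate 1 or 3 (0.108 and 0.0734). In all, 6 of 9 subunit genes were higher and 1 lower in untreated L1236, or 77.8%, against 27.2% of all genes and 43.4% of bright ones. The median difference was 0.77, against -0.02 over all genes. On the 8 arrays 5 were higher and 2 lower.

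INPP5D encodes SHIP1, a phosphatase of blood cells that removes a phosphate from the lipid that PI3K makes. It was lower in untreated L1236 than in untreated L428, and no treatment difference was called. Probe set 203332_s_at read 8.12, 8.07 and 8.32 in untreated and 8.36, 8.05 and 7.73 in treated L428. In L1236 it read 6.33, 7.23 and 6.91 untreated and 7.31, 6.83 and 6.64 treated. Every L428 array lay above every L1236 array. The untreated lines differed by -1.35 ± 0.26 (limma adjusted p = 0.00487), a 2.55-fold lower signal in L1236, and by -1.13 ± 0.18 on the 8 arrays (0.00762).

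The second INPP5D probe set, 203331_s_at, read 6.83, 6.92 and 6.50 in untreated and 7.04, 6.39 and 6.34 in treated L428. It read 5.84, 5.94 and 5.85 in untreated and 6.42, 5.90 and 5.91 in treated L1236. Untreated groups did not overlap, and the difference was -0.87 ± 0.21 (limma adjusted p = 0.0167), or -0.81 ± 0.14 on the 8 arrays (0.0108). The call was lost narrowly without L428 untreated replicate 1 (0.0501) or 2 (0.0650) and without L1236 untreated replicate 1 (0.0530) or 3 (0.0529). Treatment differences of both probe sets lay between -0.16 and 0.20, and their 95% intervals ran from -0.72 to 0.70 at the widest. In a bulk lysate, fewer expressing cells and less RNA per cell cannot be told apart.

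Lipid phosphatases and other PI3K antagonists had values for 10 of 12 listed genes. All 10 are bright. None was called in L428, and on the 8 arrays 2 were higher and 2 lower (40% against 25.9% and 40.8%). In L1236, TNS1, a focal adhesion protein, rose from 3.71 ± 0.41 to 5.78 ± 0.91, a difference of 2.07 ± 0.39 (limma adjusted p = 0.0127). The TNS1 call was lost without untreated L1236 replicate 3 (0.0548) or treated L1236 replicate 3 (0.0551). It was also lost with the replicate number as a block (0.0775). That 1 call is 10% of the list, against 12.4% and 18.6%. Counted without the arrays numbered 1, 3 were higher and 1 lower (40% against 32.2% and 49.2%). The list of stromal, endothelial and epithelial markers held 4 of 8 genes called higher in treated L1236: the epithelial genes EPCAM (5.37) and KRT19 (2.03), the collagen gene COL1A1 (2.86) and the endothelial gene VWF (0.52). The other 4 were not called, with differences of -0.02 for COL1A2, 0.08 for PDGFRB, -0.03 for CDH5 and -1.02 for PECAM1. The part of these genes in the TNS1 rise was not tested.

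Between the untreated lines 4 of the 10 antagonists were higher in L1236 and 2 lower, 60% against 27.2% and 43.4%, with a median of 0.39. PHLPP1, a phosphatase that dephosphorylates AKT, read 3.58 ± 0.48 in L428 and 8.61 ± 0.34 in L1236, a difference of 5.03 ± 0.28 (limma adjusted p = 2.59e-06). INPP4B, another lipid phosphatase, was lower in L1236, at 3.86 ± 0.86 against 7.56 ± 0.25 (-3.70 ± 0.51, adjusted p = 0.000714). PIK3IP1, which inhibits the PI3K catalytic subunit, read 3.53 ± 0.99 in L428 and 6.15 ± 0.27 in L1236 (2.62 ± 0.49, adjusted p = 0.00398, 0.0505 on the 8 arrays). The untreated lines thus differed in opposite directions at single phosphatase genes. With 2 arrays per group, 5 were higher and 3 lower (80% against 36% and 57.4%).

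Adaptors and receptors that recruit PI3K had values for 15 of 17 genes. Of these, 9 are bright, so the shares over all 15 are not like for like with the bright background. Over the 9 bright genes, 0% were called in L428, 11.1% in L1236 and 77.8% between the untreated lines. The bright background was 6.07%, 18.6% and 43.4%. On the 8 arrays the 9 gave 11.1%, 66.7% and 77.8%, against 40.8%, 49.2% and 57.4%. None was called in L428, and on the 8 arrays 1 was lower (6.67% against 25.9% and 40.8%). In L1236, GAB2, a docking protein that binds the regulatory subunit, fell from 10.84 ± 0.20 to 9.52 ± 0.52 (-1.32 ± 0.25, limma adjusted p = 0.0121). The GAB2 call was lost without treated L1236 replicate 2 (0.0532), and on the 8 arrays 2 adaptor genes were higher and 4 lower (40% against 32.2% and 49.2%). With all arrays GAB2 was the 1 call, 6.67% against 12.4% and 18.6%. In the untreated lines compared with each other, 5 were higher in L1236 and 2 lower (46.7% against 27.2% and 43.4%). IRS2, an adaptor of the insulin and interleukin receptors, read 2.33 ± 0.45 in untreated L428 and 11.19 ± 0.49 in untreated L1236 (8.86 ± 0.31, adjusted p = 1.36e-07). GAB2 was higher by 2.58 ± 0.25 in untreated L1236 (7.41e-05) and GRB2, a link to RAS signalling, was lower by 2.23 on the log2 scale (-2.23 ± 0.17, 1.49e-05). The median of the list was -0.01, and the 8 arrays also gave 5 higher and 2 lower.

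**Figure D2:**
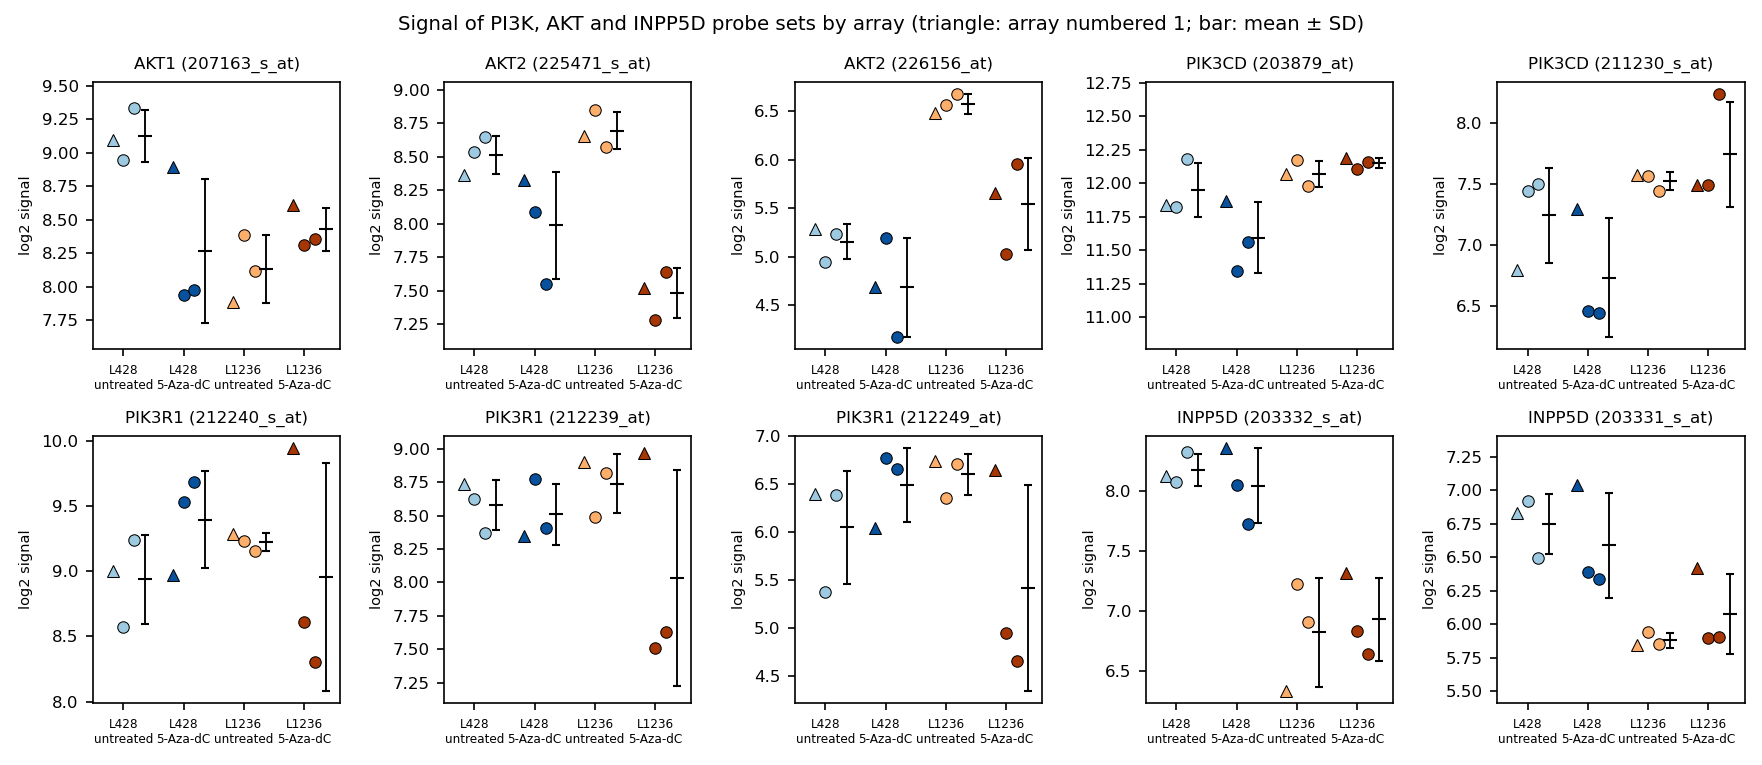
Log2 signal (y axis, with its own range in each panel) of the bright PIK3CD, PIK3R1, INPP5D, AKT1 and AKT2 probe sets on every array of the 4 groups (x axis), with the mean ± SD of 3 arrays and triangles for the arrays numbered 1. INPP5D 203332_s_at lies at 7.73 or above on every L428 array and at 7.31 or below on every L1236 array, AKT2 225471_s_at is lower on all 3 treated L1236 arrays, and the treated L1236 triangle stands above the other treated points in PIK3R1.

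AKT1 encodes the most widely expressed AKT kinase. Its probe set, 207163_s_at, read 9.09, 8.95 and 9.34 in untreated L428 and 8.89, 7.93 and 7.98 in treated L428. All treated arrays lay below all untreated ones, by 0.06 at the nearest, where treated replicate 1 lay. The difference was -0.86 ± 0.25 (95% interval -1.43 to -0.29, limma adjusted p = 0.124), and on the 8 arrays -1.19 ± 0.15 (0.00696). Leaving out treated L428 replicate 1 alone gave -1.17 (0.00350).

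In L1236, AKT1 read 7.89, 8.39 and 8.12 untreated and 8.61, 8.31 and 8.36 treated, and these groups overlapped. The difference was 0.30 ± 0.25 (limma adjusted p = 0.431), and 0.08 ± 0.15 on the 8 arrays. The response difference, 1.16 ± 0.36, was not called (0.167), and on the 8 arrays 1.27 ± 0.22 was (0.0217). It was also called without treated L428 replicate 1 alone (1.47, adjusted p = 0.00879). Untreated L1236 lay below untreated L428 on every array, by -0.99 ± 0.25 (0.0205), a 1.99-fold lower signal, and by -0.89 ± 0.15 on the 8 arrays (0.0111). That call was lost without L428 untreated replicate 3 (0.0745) and without L1236 untreated replicate 1 (0.0769) or 3 (0.0602).

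AKT2 encodes the AKT kinase best known from insulin signalling, and it gave the only called treatment response among the members. Its brightest probe set, 225471_s_at, read 8.66, 8.85 and 8.58 in L1236 without the drug and 7.52, 7.28 and 7.64 after it. The groups lay 0.93 apart at their nearest arrays, and treated replicate 1 lay between the other 2 treated arrays. The signal fell by 1.21 on the log2 scale (-1.21 ± 0.19, 95% interval -1.64 to -0.79, limma adjusted p = 0.00523), a 2.32-fold decrease. In the smaller set of arrays, the difference was -1.25 ± 0.23 (0.0161), and the call held in each fit that left out 1 array. Blocking on the replicate number, for which the L1236 arrays are not shown to be pairs, ended the call (0.0528).

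In L428 the same probe set read 8.37, 8.54 and 8.65 untreated and 8.33, 8.09 and 7.55 treated. All treated arrays lay below all untreated ones, by 0.035 at the nearest. The difference was -0.53 ± 0.19 (limma adjusted p = 0.201), and -0.77 ± 0.23 on the 8 arrays (0.0874). It was called without treated L428 replicate 1 alone (-0.70, adjusted p = 0.0420). The response difference was -0.69 ± 0.27 (0.298, and 0.518 on the 8 arrays), so the larger decrease in L1236 was not shown to differ from that in L428.

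A second AKT2 probe set, 226156_at, read 6.48, 6.57 and 6.68 in L1236 without the drug and 5.66, 5.02 and 5.95 after it. In L428 it read 5.28, 4.94 and 5.23 untreated and 4.69, 5.19 and 4.17 treated. The L1236 groups did not overlap, and the difference of -1.03 ± 0.28 missed the threshold (limma adjusted p = 0.0578, and 0.149 on the 8 arrays). It was called without treated L428 replicate 2 (0.0413) or 3 (0.0417), arrays that enter only through the shared estimate of spread. Between the untreated lines it was higher in L1236 by 1.42 ± 0.28 (0.00600), a 2.68-fold difference, and 1.54 ± 0.45 on the 8 arrays (0.0666). The brighter probe set did not follow it: 225471_s_at differed by 0.18 ± 0.19 (0.640). The 2 probe sets of AKT2 therefore had the same sign under treatment and disagreed on the size of the difference between the untreated lines.

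Genes of AKT activation and AKT substrates had values for 15 of 17 members of their list, all bright. In L428, PPP2CA, a catalytic subunit of the phosphatase that dephosphorylates AKT, fell from 13.37 ± 0.02 to 12.98 ± 0.16 (-0.39 ± 0.07, limma adjusted p = 0.0184). Blocking on the replicate number gave an adjusted p of 0.0550, and leaving out arrays gave 0.0532 and 0.0573 without untreated L428 replicate 2 or 3 and 0.0736 and 0.0733 without treated L428 replicate 2 or 3. On the 8 arrays it was 0.000332, with 3 genes of the list higher and 5 lower (53.3% against 25.9% and 40.8%). With all arrays PPP2CA was the 1 call, 6.67% against 3.85% and 6.07%. In L1236, PPP2R2B, a regulatory subunit of the same phosphatase, fell from 9.76 ± 0.31 to 5.88 ± 1.25 (-3.89 ± 0.59, 0.00482). THEM4, an AKT-binding protein, fell from 8.34 ± 0.17 to 6.46 ± 0.71 (-1.88 ± 0.30, 0.00624). With 2 arrays per group, 6 of the 15 were higher and 5 lower in L1236 (73.3% against 32.2% and 49.2%), and these 2 calls on all arrays are 13.3%, against 12.4% and 18.6%.

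The response difference of PPP2CA was 0.49 ± 0.09 (limma adjusted p = 0.0324, and 0.000665 on the 8 arrays). It was 0.0886 with the replicate number as a block. The call was lost on leaving out any array other than the 2 treated arrays numbered 1, with adjusted p from 0.0577 to 0.0860. For untreated cells of the 2 lines, 5 of the 15 were higher in L1236 and 2 lower, 46.7% against 27.2% and 43.4%, with a median of 0.50. TRIB2, a pseudokinase, read 2.54 ± 0.24 in L428 and 8.76 ± 0.61 in L1236 (6.22 ± 0.43, 9.28e-06). TBC1D4, an AKT substrate in glucose transporter traffic, read 8.91 ± 0.20 and 13.15 ± 0.31 (4.25 ± 0.19, 5.67e-07). SGK1, a kinase related to AKT, read 8.31 ± 0.41 and 11.94 ± 0.47 (3.63 ± 0.64, 0.00310). In the smaller set of arrays, 7 were higher and 3 lower (66.7% against 36% and 57.4%).

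Genes of the TSC and mTOR complexes, which lie downstream of AKT, had values for all 19 members, all bright. None was called in L428, and on the 8 arrays 4 were higher and 2 lower (31.6% against 25.9% and 40.8%). In L1236, 2 were higher and 2 lower (21.1% against 12.4% and 18.6%). RPTOR, the scaffold of the mTOR complex that senses nutrients, fell from 6.98 ± 0.01 to 6.0 ± 0.30 (-0.98 ± 0.14, limma adjusted p = 0.00351). RRAGA and RRAGC, GTPases that bring that complex to the lysosome, rose by 0.50 ± 0.09 (0.0114) and 0.34 ± 0.08 (0.0310). The RRAGA call was lost without treated L1236 replicate 2 (0.0505) and with the replicate number as a block (0.0674). The RRAGC call was lost without untreated L1236 replicate 1, 2 or 3 (0.0509, 0.0988 and 0.110) and without treated L1236 replicate 2 or 3 (0.121 and 0.0995). For RRAGC the block gave 0.121. Counted without the arrays numbered 1, 6 were higher and 3 lower (47.4% against 32.2% and 49.2%).

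The RPTOR response differed between the lines by -0.95 ± 0.20 (limma adjusted p = 0.0462), which was not called on the 8 arrays (0.129) or with the replicate block (0.136). The call held without treated L428 replicate 1 or any single treated L1236 array, and the adjusted p was 0.0688 to 0.108 on leaving out any of the other 8. Between the untreated lines 5 of the 19 mTOR genes were higher in L1236 and 6 lower (57.9% against 27.2% and 43.4%), and 7 and 5 on the 8 arrays (63.2% against 36% and 57.4%). RRAGD, another GTPase of that family, was higher by 4.47 ± 0.35 (2.00e-05) and RRAGC by 1.95 ± 0.08 (3.41e-07). EIF4EBP1, a repressor of translation that mTOR inactivates, was lower, at 7.48 ± 0.21 against 9.53 ± 0.65 (-2.05 ± 0.29, 0.000828).

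FOXO1 encodes the FOXO factor of the B-cell programme. Probe set 202723_s_at read 6.86, 7.0 and 7.09 in untreated L428 and 7.15, 7.32 and 7.28 in treated L428. In L1236 it read 6.99, 6.98 and 7.01 untreated and 7.17, 7.01 and 7.05 treated. In L428 all treated arrays lay above all untreated ones, and in L1236 the groups overlapped. The L428 difference was 0.27 ± 0.07 (95% interval 0.11 to 0.42, limma adjusted p = 0.0789) and on the 8 arrays 0.26 ± 0.04 (0.0125). Without treated L428 replicate 1 alone it was 0.32 (0.0224).

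The brighter FOXO1 probe set, 202724_s_at, read 7.39, 6.93 and 6.70 in untreated and 7.38, 7.33 and 7.58 in treated L428. It read 7.74, 7.36 and 7.42 in untreated and 7.75, 7.30 and 7.25 in treated L1236. The arrays numbered 1 were the highest of their group in 3 of the 4 groups. The L428 difference was 0.42 ± 0.20 (limma adjusted p = 0.354), and 0.64 ± 0.11 on the 8 arrays (0.0178). The L1236 difference was -0.08 ± 0.20, and the response difference -0.49 ± 0.28 (0.561) was called on the 8 arrays at -0.75 ± 0.16 (0.0384). Untreated L1236 was above untreated L428 by 0.50 ± 0.20 (0.126), and by 0.58 ± 0.11 on the 8 arrays (0.0163). Without untreated L428 replicate 1 alone that difference was 0.69 (0.0274).

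FOXO3 encodes a FOXO factor linked to cell death and to quiescence. Its brightest probe set, 224891_at, read 9.71, 8.85 and 9.03 in untreated and 9.32, 9.84 and 9.72 in treated L428. In L1236 it read 10.27, 9.76 and 9.84 untreated and 10.15, 10.63 and 10.85 treated. In each line the untreated array numbered 1 was the highest of its group and the treated array numbered 1 the lowest, and the groups overlapped. The differences were 0.43 ± 0.27 in L428 (limma adjusted p = 0.524) and 0.58 ± 0.27 in L1236 (0.222). On the 8 arrays they were 0.84 ± 0.10 (0.00610) and 0.94 ± 0.10 (0.00305), and no fit that left out 1 array gave a call.

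Probe set 204131_s_at read 8.29, 7.43 and 8.04 in untreated and 8.21, 8.88 and 8.69 in treated L428. It read 8.90, 8.51 and 8.43 in untreated and 9.07, 9.27 and 9.25 in treated L1236, where the groups did not overlap. The differences were 0.67 ± 0.24 in L428 (limma adjusted p = 0.204) and 0.58 ± 0.24 in L1236 (0.186), and on the 8 arrays 1.05 ± 0.20 (0.0247) and 0.79 ± 0.20 (0.0492). Probe set 224889_at read 7.89, 6.92 and 7.41 in untreated and 7.52, 7.75 and 7.64 in treated L428. It read 7.98, 7.40 and 7.71 in untreated and 8.07, 8.56 and 8.71 in treated L1236. In L1236 its groups did not overlap either, with a difference of 0.75 ± 0.26 (0.120), or 1.08 ± 0.19 on the 8 arrays (0.0156). In L428 the difference was 0.23 ± 0.26 (0.626), or 0.53 ± 0.19 (0.157).

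All 3 bright FOXO3 probe sets thus had higher treated means in both lines, and none was called on all arrays. Their response differences between the lines were -0.09 to 0.52 with all arrays, and none was called on the 8 arrays. Untreated L1236 lay above untreated L428 by 0.76 ± 0.27 in 224891_at (limma adjusted p = 0.0869) and 0.69 ± 0.24 in 204131_s_at (0.0814), with no overlap in either. In 224889_at the difference was 0.29 ± 0.26 (0.590), the groups overlapped, and the 8 arrays gave 0.40 ± 0.19 (0.260). For the first 2 probe sets, without untreated L428 replicate 1 alone the differences were 1.02 (0.0208) and 0.88 (0.0389). In the smaller set of arrays, they were 0.86 ± 0.10 (0.00298) and 0.73 ± 0.20 (0.0552).

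The 3 probe sets shared by FOXO3B and FOXO3, genes of near-identical sequence, cannot be assigned to either. Probe set 204132_s_at read 7.32, 6.75 and 7.03 in untreated and 7.14, 8.05 and 7.88 in treated L428, and 8.27, 7.83 and 7.78 in untreated and 8.49, 8.81 and 8.96 in treated L1236. It differed by 0.66 ± 0.26 in L428 (limma adjusted p = 0.244) and 0.79 ± 0.26 in L1236 (0.0997), and between the untreated lines by 0.93 ± 0.26 (0.0313). Probe set 210655_s_at was also higher in untreated L1236, by 1.08 ± 0.32 (0.0434). Blocking on the replicate number ended both calls between the untreated lines (0.145 for 204132_s_at and 0.0856 for 210655_s_at). Counted without the arrays numbered 1, 204132_s_at was called in both lines, at 1.07 ± 0.12 (0.00421) and 1.08 ± 0.12 (0.00292). At 0.40 ± 0.32 in L428 (0.557) and 0.70 ± 0.32 in L1236 (0.218), the treatment differences of 210655_s_at were not called on all arrays, and the L1236 difference was called on the 8 arrays, at 1.07 ± 0.17 (0.00973). The third of these probe sets, 217399_s_at, with a mean of 4.11, was called in no comparison.

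**Figure D3:**
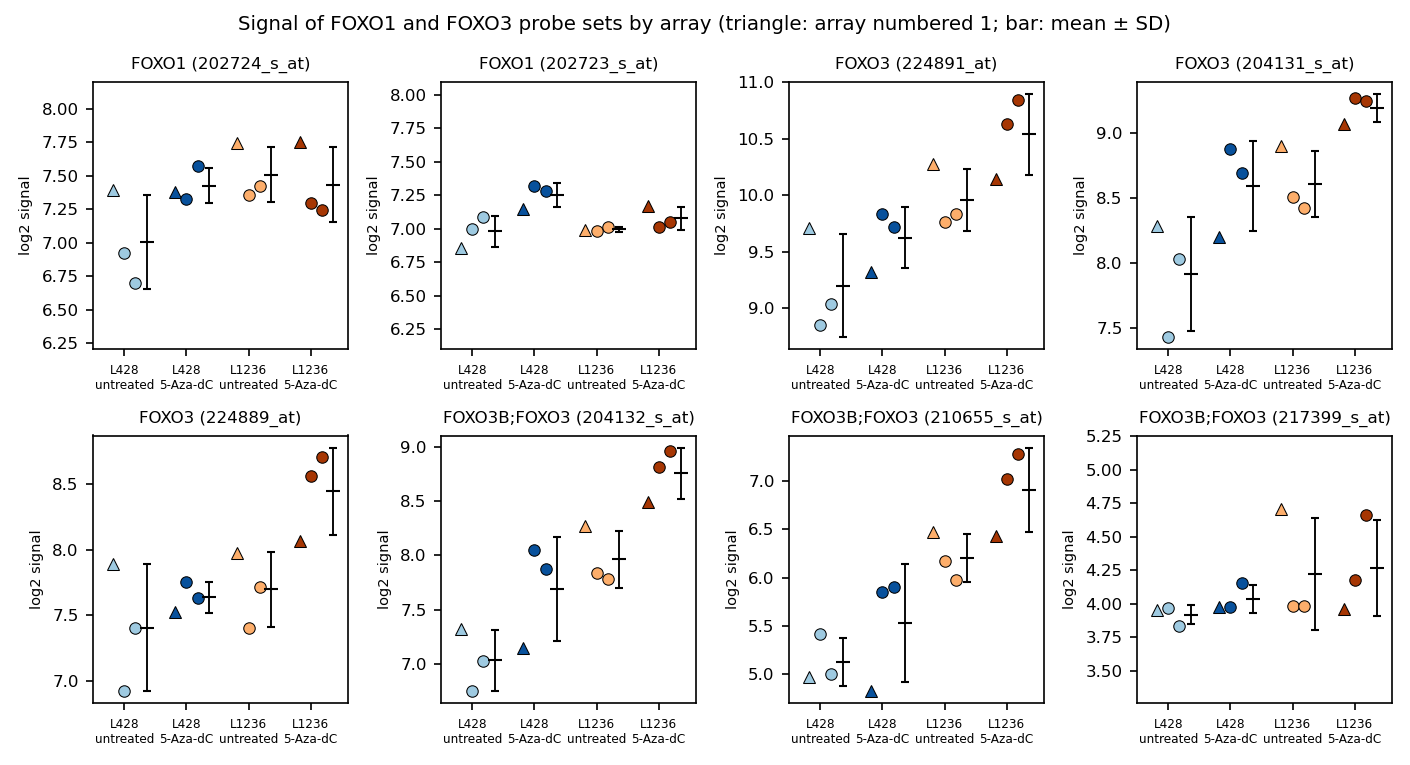
Log2 signal (y axis, with its own range in each panel) of the bright FOXO1, FOXO3 and shared FOXO3B and FOXO3 probe sets on every array of the 4 groups (x axis), with the mean ± SD of 3 arrays and triangles for the arrays numbered 1. In FOXO3 224891_at the untreated triangles are the highest of their groups and the treated triangles the lowest, so the groups overlap in both lines.

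Treated replicate 1 lay nearer to the untreated mean than to the mean of the other treated arrays in 12 of the 15 bright member probe sets in L428, or 80%, against 59.5% of all bright probe sets. In L1236 the count was 8 of 15, or 53.3%, against 54.3%. All treated arrays lay beyond all untreated ones in 3 of 15 in L428 (20%, against 26.5% of the bright table) and 4 of 15 in L1236 (26.7%, against 47.3%). In the untreated lines compared with each other, 6 of 15 separated in this way (40%, against 59.2%).

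Other FOXO family members and FOXO regulators had values for all 18 genes of their list, all bright. In L428, IKBKB, a kinase of the NF-kappaB pathway that can also phosphorylate FOXO3, fell from 8.54 ± 0.12 to 7.93 ± 0.14 (-0.61 ± 0.11, limma adjusted p = 0.0266). The adjusted p was 0.0923 with the replicate number as a block, 0.0883 and 0.0591 without untreated L428 replicate 2 or 3, and 0.106 and 0.102 without treated L428 replicate 2 or 3. With 2 arrays per group, 3 genes of the list were higher and 7 lower (55.6% against 25.9% and 40.8%). IKBKB was the 1 call on all arrays, 5.56% against 3.85% and 6.07%.

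In L1236, 3 of the 18 regulators were higher and 5 lower, or 44.4% against 12.4% and 18.6%, with a median of 0.01 against -0.03. SKP2, a ubiquitin ligase component that targets FOXO1, fell from 9.92 ± 0.24 to 8.44 ± 0.78 (-1.48 ± 0.35, limma adjusted p = 0.0344). SIRT1, a deacetylase of FOXO proteins, rose from 8.91 ± 0.28 to 9.79 ± 0.19 (0.88 ± 0.22, 0.0418). FOXO6, read by a probe set whose suffix marks possible cross-hybridisation, rose from 5.64 ± 0.35 to 6.64 ± 0.13 (1.00 ± 0.20, 0.0153, and 0.0901 on the 8 arrays). The SKP2 probe set carries the same suffix. The SKP2 call was lost on leaving out any array other than untreated L428 replicate 1, treated L428 replicates 1 and 2 and treated L1236 replicate 1, with adjusted p from 0.0547 to 0.131. The SIRT1 call was lost on leaving out any array other than treated L428 replicates 1 and 2, untreated L1236 replicate 1 and treated L1236 replicate 1, from 0.0541 to 0.149. The FOXO6 call was lost without untreated L1236 replicate 3 (0.0623) or treated L1236 replicate 2 (0.0657). Blocking on the replicate number ended all 3 calls, with 0.120 for SKP2, 0.0831 for SIRT1 and 0.0595 for FOXO6. Among the smaller changes called, STK4 rose by 0.64 ± 0.09 (0.00390, 0.000540 on the 8 arrays and 0.0337 with the block). YWHAG was lower after treatment (-0.27 ± 0.04, 0.00605, 0.0253 on the 8 arrays and 0.064 with the block). On the 8 arrays 4 of the 18 were higher and 5 lower, 50% against 32.2% and 49.2%.

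Between the untreated lines 4 regulators were higher in L1236 and 3 lower, 38.9% against 27.2% and 43.4%, and 4 and 6 on the 8 arrays (55.6% against 36% and 57.4%). YWHAG, an adaptor of the family that holds phosphorylated FOXO in the cytoplasm, was higher in L1236 by 0.79 ± 0.04 (limma adjusted p = 2.24e-06). MDM2, a ubiquitin ligase, was lower by 0.78 on the log2 scale (-0.78 ± 0.14, 0.00286). EP300, an acetyltransferase that binds FOXO, was lower as well (-0.70 ± 0.18, 0.0207). The EP300 call was lost without untreated L428 replicate 1 or 2 (0.0548 and 0.0707) or untreated L1236 replicate 1 or 2 (0.0692 and 0.0587). The YWHAG response differed between the lines by -0.30 ± 0.06 (0.0409, and 0.0594 on the 8 arrays or 0.196 with the replicate block). It was lost on leaving out any array other than the 2 treated arrays numbered 1, with adjusted p from 0.0562 to 0.103.

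FOXO target genes had values for 33 of 35 members, 30 of them bright. Many of them are also targets of other factors, such as p53 or interferon signalling, and CDKN1A, TNFSF10 and others were known to respond in these data when the list was written. In L428, 2 were higher and none lower, 6.06% against 3.85% and 6.07%, with a median of 0.18 against -0.02. TNFSF10, the death ligand TRAIL, rose from 12.44 ± 0.22 to 13.93 ± 0.47 (1.49 ± 0.27, limma adjusted p = 0.0237). GABARAPL1, an autophagy protein, rose from 6.23 ± 0.36 to 7.70 ± 0.40 (1.47 ± 0.29, 0.0328).

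Blocking on the replicate number gave an adjusted p of 0.0669 for TNFSF10 and 0.120 for GABARAPL1. The TNFSF10 call was lost without untreated L428 replicate 2 or 3 (0.0840 and 0.0626) or treated L428 replicate 2 or 3 (0.0974 and 0.104). The GABARAPL1 call was lost without those 4 arrays in turn (0.108, 0.0989, 0.127 and 0.137) and without untreated L1236 replicate 3 or treated L1236 replicate 2 or 3 (0.0614, 0.0614 and 0.0549). Counted without the arrays numbered 1, 14 of the 33 targets were higher and 2 lower in L428, 48.5% against 25.9% and 40.8%.

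In L1236, 7 FOXO targets were higher and 3 lower, 30.3% against 12.4% and 18.6%, and the median was 0.86 against -0.03. CDKN1A, the cyclin-dependent kinase inhibitor p21, rose from 6.94 ± 0.43 to 10.20 ± 0.90 (3.26 ± 0.58, limma adjusted p = 0.00968). S1PR1, a receptor of lymphocyte traffic, rose from 4.41 ± 0.25 to 7.23 ± 0.26 (2.81 ± 0.23, 0.000168). SESN3, a stress-induced inhibitor of mTOR signalling, rose from 5.67 ± 0.33 to 7.47 ± 0.22 (1.80 ± 0.30, 0.00693). These 3 calls held in each fit that left out 1 array. With 2 arrays per group, 19 of the 33 were higher and 5 lower, 72.7% against 32.2% and 49.2%.

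The responses of 3 FOXO targets differed between the lines by a call. S1PR1 differed by 2.59 ± 0.32 (limma adjusted p = 0.00483), with 7.34 ± 0.02 in untreated and 7.56 ± 0.46 in treated L428. SESN3 differed by 2.43 ± 0.42 (0.0218), with 8.54 ± 0.59 and 7.91 ± 0.27 in L428. PRDM1, the plasma-cell regulator BLIMP1, differed by 1.64 ± 0.14 (0.000443), since it read 6.08 ± 0.12 in untreated and 7.73 ± 0.07 in treated L1236 and 9.83 ± 0.07 and 9.84 ± 0.19 in L428. All 3 were also called on the 8 arrays and with the replicate block. The SESN3 call was lost without treated L428 replicate 2 or 3 (0.0599 and 0.0624), untreated L1236 replicate 2 (0.0587) or treated L1236 replicate 2 or 3 (0.0604 and 0.0545).

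For untreated cells of the 2 lines, 8 FOXO targets were higher in L1236 and 10 lower, 54.5% against 27.2% and 43.4%, and 10 and 11 on the 8 arrays (63.6% against 36% and 57.4%). TXNIP, an inhibitor of thioredoxin, read 5.78 ± 1.21 in untreated L428 and 10.14 ± 0.82 in untreated L1236 (4.36 ± 0.72, limma adjusted p = 0.00206). CDKN2B, another cyclin-dependent kinase inhibitor, read 2.56 ± 0.52 and 6.58 ± 0.47 (4.02 ± 0.43, 0.000163). PRDM1 was lower in L1236 (-3.75 ± 0.10, 1.77e-08). The median of the list was -0.02, as it was over all genes.

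**Figure D4:**
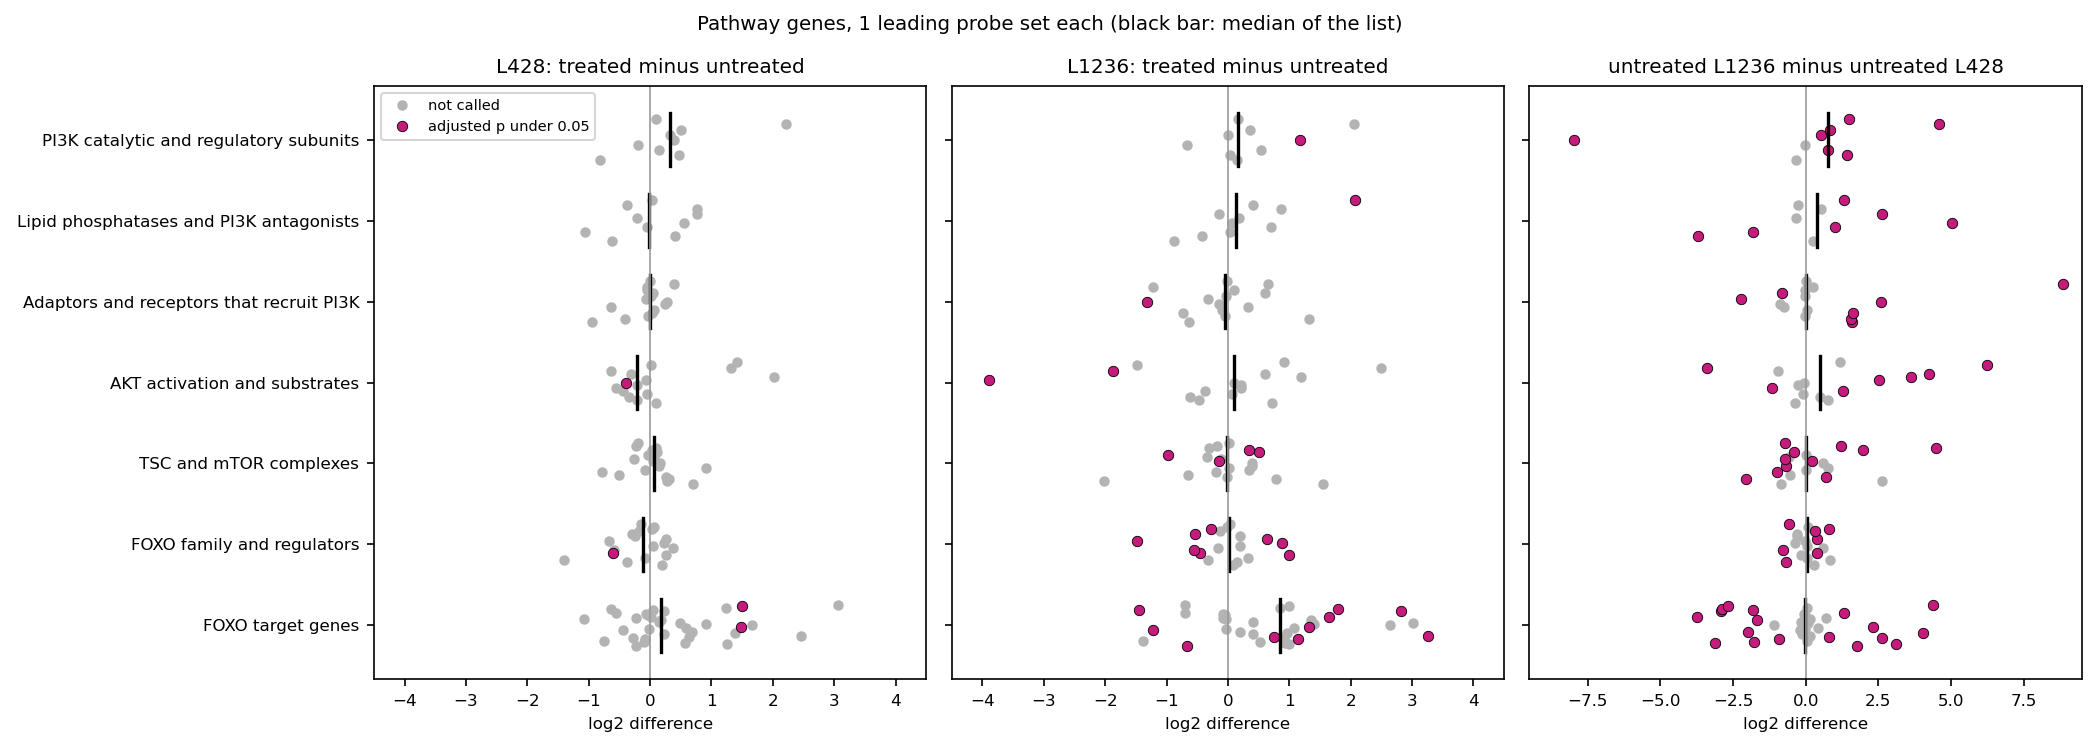
Log2 differences (x axis, wider in the right panel) of the genes of 7 pathway lists (y axis), 1 point per gene, in L428, in L1236 and between the untreated lines, with a black bar at the median of each list and colour for an adjusted p under 0.05. The median of the FOXO target list lies at 0.18 in L428, 0.86 in L1236 and -0.02 between the untreated lines.

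For the 3 members whose brightest probe set had group means spanning at least 1, the genes with the most similar course were named by the root mean square distance over the 12 arrays, after centring each on its own mean. For AKT2 these were GPN1 (0.187), MRPL48 (0.223) and REPIN1 (0.225). For INPP5D they were HEATR6 (0.195), RRP36 (0.231) and ERGIC1 (0.232), and for FOXO3 they were PLXNC1 (0.155), EXOC8 (0.167) and CDKL3 (0.167). The group means of the other members spanned 0.46 to 0.99. The distances are in log2 units and describe these arrays only.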

How the data were processed

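The authors deposited a log2 signal for every probe set and array. RMA (robust multichip averaging) is the method named, per the submitters' processing notes. Its version, and any further scaling or centring of the table, were not given in the sources used here. Array medians of the deposited log2 values were 3.01 to 3.08. Single-channel signals have no direction to turn. The stated array type (whole-transcript) conflicts with the identifiers, which have the form used on 3' expression arrays, and these identifiers were kept. The annotation gave 41091 of the non-control probe sets 1 gene symbol, 1801 several and 11721 none, and 41037 were matched to RefSeq by Entrez identifier. The 62 control probe sets were left out.

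Groups followed the sample descriptions. The model had 1 mean per group and was fitted with limma 3.58.1 in R 4.3.3 to all 12 arrays and 54613 probe sets, with empirical Bayes moderation. Tests were two-sided, adjusted by Benjamini-Hochberg over all probe sets of a comparison, and the script was tested on simulated data. Values are differences ± SE, and levels mean ± SD. Each listed gene was read by its brightest probe set (highest mean of all arrays), and up to 3 called genes per list and comparison, those with the largest change, are named. For L1236, SESN1, CXCR4, STK4 and YWHAG are named besides, and the counts of named differences under other settings leave these out. The members and lists were chosen with earlier results of these data known.

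Same-numbered arrays of untreated and treated L428 deviated together (r = 0.26, 0.15 and 0.17 for numbers 1, 2 and 3). Unlike numbers did so as much: 0.16 for untreated 2 with treated 3 and 0.17 for untreated 3 with treated 2. Arrays numbered 1 had r of -0.22 to -0.19 with those numbered 2 and 3. Only number 1 thus stood apart, and pairs by number are not shown. The main fit took no pairs. In L1236 the same-numbered values were 0.07, 0.01 and 0.10, and across the untreated lines 0.29, 0.19 and 0.08, and no pairing was assumed. Treated arrays of the 2 lines with the same number deviated together (0.40, 0.28 and 0.22). Unlike numbers did so as much, at 0.31 for L428 2 with L1236 3 and 0.27 for L428 3 with L1236 2. The replicate block was fitted within each line, so it does not model this likeness between lines. The blocked value is given where it ends an all-array call of a member, of a shared FOXO3B and FOXO3 probe set or of a named pathway gene. Alternatives were other normalizations, a filter on dim probe sets, 1 probe set per gene, a variance trend, array weights, only the arrays compared, a replicate block, and fits without single arrays or the arrays numbered 1. The setting without only the 2 treated arrays numbered 1 was chosen after seeing the data.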

Additional observations from a re-analysis of the deposited data

Results flagged for a closer look

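The responses of 6 pathway genes differed between the lines in a direct test of that difference (limma, L1236 response minus L428 response). These were PPP2CA at 0.49, RPTOR at -0.95, YWHAG at -0.30, S1PR1 at 2.59, SESN3 at 2.43 and PRDM1 at 1.64 on the log2 scale. S1PR1 and PRDM1 kept their calls in each fit that left out 1 array, and the other 4 did not. Blocking on the replicate number ended the calls of PPP2CA (adjusted p = 0.0886), RPTOR (0.136) and YWHAG (0.196) and kept the other 3. No member probe set differed in this way on all 12 arrays.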

How the results depend on the processing

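No named difference changed sign where it was called, in any setting. For L428 the count of called member probe sets was 0 on all arrays, 1 with array weights, 6 without the 4 arrays numbered 1, 3 without the 2 treated arrays numbered 1, and 0 to 4 on leaving out 1 array. The 4 came without treated L428 replicate 1. For L1236 the count was 1, and it became 2 with median centring or without dim probe sets, 12 with array weights, 6 without the 4 arrays numbered 1, 4 without the 2 treated ones, and 1 to 3 on leaving out 1 array, the 3 without treated L1236 replicate 1. With the replicate block it was 0 in L1236, since AKT2 225471_s_at had an adjusted p of 0.0528. The L1236 samples share only a number, and whether the block suits these arrays was not tested. Of the 14 pathway differences in L1236 that were named for the largest changes, 8 were called with the replicate block. For the response difference the count of 0 became 1 with array weights, 4 without the 4 arrays numbered 1, 4 without the 2 treated ones, and 0 to 2 on leaving out 1 array. Between the untreated lines the count of 4 became 2 with 1 probe set per gene, 1 with array weights, and 2 to 6 on leaving out 1 array. The setting with 1 probe set per gene keeps only the brightest of each gene. It could not count AKT2 226156_at and INPP5D 203331_s_at, so its lower count does not show a loss of calls. With the replicate block the count was 3, and AKT1 had an adjusted p of 0.0637. The other settings kept these counts within 1.5 times. Among single named differences, over all alternatives and comparisons, a call was lost in 55 cases and gained in 44, and on leaving out 1 array lost in 98 and gained in 14.

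Over the whole table, median centring moved the share of higher calls in L1236 from 50.8% to 24.6% of 13111 calls, and array weights to 26.8% of 29528. The array weights ran from 0.0516 to 4.64 and their estimation did not converge. Using only the arrays compared, L428 had 244 calls against 1647. Without the arrays numbered 1, each group has 2 arrays, and calls over all probe sets rose as well, to 9956 in L428. Fits without 1 array assume that a group of 2 varies like the others. The cause of these shifts was not tested. Values near 2 to 3 lie at the floor of the scale, and folds from there depend on the submitters' processing.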
